A study of Mus musculus with 31 samples.

Results

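The core circadian clock genes analysed here are Arntl, Clock, Per1, Per2, Per3, Cry1, Cry2, Nr1d1 and Nr1d2, which were chosen by name as the transcriptional core of the mammalian clock. They are 9 of the 21938 protein-coding genes of the GENCODE annotation of the mouse genome build mm10 (GRCm38). Every accessible region within 1 kb of one of their transcription start sites (TSSs), in their gene bodies or within 25 kb of the genes was taken. This gave 58 of the 63456 peaks of the library.

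The clock is a feedback loop of transcription that runs in nearly all cells of the body, fibroblasts included. ARNTL (also called BMAL1) and CLOCK bind E-boxes as a dimer and activate the Per, Cry and Nr1d genes, and the PER and CRY proteins return to the nucleus and block that dimer. In a second loop the nuclear receptors REV-ERBα and REV-ERBβ, the products of Nr1d1 and Nr1d2, repress Arntl through ROR elements, where the ROR receptors activate, and bZIP proteins of the DBP family act on some of these genes through D-boxes.

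The study measured the binding of transcription factors (TFs) to mitotic chromosomes in mouse embryonic stem cells and related it to their properties in interphase. Part of it mapped how overexpressed TFs change chromatin accessibility in NIH-3T3, an immortalised line of mouse embryonic fibroblasts. The series holds 31 ATAC-seq samples, of which 30 carry an overexpressed TF or only the doxycycline-dependent activator rtTA3G and were not analysed here. The library described is the only one of the parental line, which has neither transgene, so no group was compared with another and no test between samples was made. It was made from 50000 cells with 0.5 µM of the transposase Tn5, which inserts sequencing adapters where DNA is exposed. No doxycycline is named in the label of the parental cells, while the study's methods speak of its use on NIH-3T3 cells without setting the parental cells apart. The protocols name neither a treatment that synchronises the clocks of the cells nor a time of day, and the peaks are an average over all cells of 1 harvest.

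Markers of the labelled cell type were checked first. A promoter peak is here a peak within 1 kb of any TSS of a gene, and 53.7% of all protein-coding genes had one. It was present at 12 of 12 fibroblast markers, 1 of 6 epithelial, 3 of 4 endothelial, 2 of 4 blood and 0 of 4 neural markers. The height of a peak is given as its fold enrichment, the number of fragments over the summit divided by the number expected from the surroundings, with 1 added to each. The −log10 q is the peak caller's measure of how improbable that height is, after correction for the number of positions tested. The number of fragments at each summit was solved from the deposited values and has a median of 29 over all peaks (quartiles 19 and 52). Ranges in brackets after a fold enrichment are exact Poisson 95% intervals of the fragments, with the expected number taken as known. They cover counting error only. The promoter peaks of the fibroblast markers had fold enrichments from 3.41 (Thy1, 12 fragments) to 10.52 (Fn1). Those of the endothelial markers ran from 3.58 (Tek) to 12.82 (Cdh5), and the epithelial and blood ones from 2.89 (Cd68) to 3.25 (Krt8).

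All 9 clock genes had a promoter peak, against 53.7% of all protein-coding genes. The clock genes have 13 promoter peaks, 16 further peaks in the bodies of 7 of the genes, and 29 peaks in the flanks. Of the flanking peaks 12 lay within 1 kb of a TSS of another gene and 17 did not. More than 1 promoter peak was found at 3 members, namely Per1 with 3 and Per2 and Cry2 with 2 each. It was found at 2845 of the 11788 protein-coding genes with a promoter peak, which is 13.0% of all protein-coding genes. A peak in the gene body was present in all members but Clock and Cry2, and in 34.3% of all protein-coding genes. Of the 16 gene body peaks, 15 had their summit in an intron and 1 in an exon. The same split over the gene body peaks of all protein-coding genes was not counted.

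**Figure D1:**
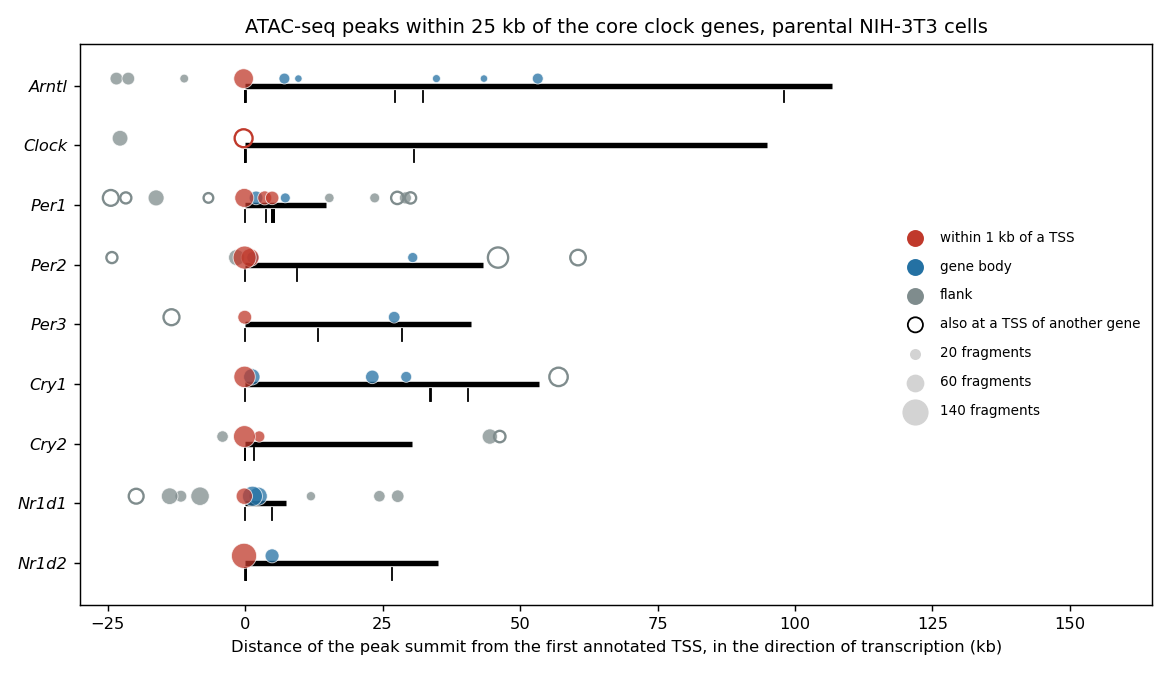
Peaks of parental NIH-3T3 cells around the 9 clock genes, by the distance of the summit from the first annotated TSS in the direction of transcription (kb). Black bars are gene bodies, ticks below them annotated TSSs, and the area of a circle grows with the fragments at the summit; the largest circle is the peak at the first TSS at every gene but Nr1d1, where it is an intron 1 peak, and Per3, where it is a flanking peak.

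The annotation gives the 9 genes 35 distinct TSSs. A peak lay within 1 kb of 23 of these, against 45.2% of all 93513 TSSs of protein-coding genes. The 12 TSSs without one were all internal starts, from 4.91 kb (Nr1d1) to 98.0 kb (Arntl) downstream of the first TSS. The strongest promoter peak of every member covered a TSS. Its summit lay upstream of the first TSS in each case, at a distance of 54 bp (Per3) to 263 bp (Arntl). The same shares over all protein-coding genes were not counted, so neither trait is shown to be particular to the clock genes.

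The peak sequences were searched on both strands for short motifs through which the clock and signalling pathways are known to act. These were the E-box CACGTG and a variant of it with another last base, CACGTT. Others were the D-box TTATGTAA or TTATGCAA, the cAMP response element TGACGTCA, the AP-1 sequence TGACTCA, and the longer ROR element and glucocorticoid response element. None of the motifs spelled out here contains another. Distances of motifs from a summit or TSS are to the centre of the motif. A match describes the letters of the reference and does not show that a protein was bound there. All sequences below are from the GRCm38 reference of RefSeq, 5′ to 3′ on the strand of the gene, with the motifs in capitals.

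Arntl and Clock encode the activators. Arntl (ENSMUSG00000055116.8, plus strand) had 1 promoter peak, at chr7:113206860-113207846, with a fold enrichment of 12.86 (10.38 to 15.75), a −log10 q of 68.4 and 91 fragments at the summit. This was the highest fold enrichment at a promoter of the 9 genes. The peak held no E-box or variant. It held a ROR element, the motif through which the nuclear receptors act on Arntl, inside the untranslated part of exon 1 and 15 bp upstream of the third annotated TSS. The stretch at chr7:113207528-113207556 is shown because it is 1 of only 2 promoter peaks of the clock genes with this motif.
Arntl, ROR element in exon 1: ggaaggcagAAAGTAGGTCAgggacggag

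The ROR element lay 340 bp downstream of the Arntl summit, outside the 300 bases centred on it. Arntl had 5 gene body peaks, more than any other member, with fold enrichments from 3.23 to 7.62. They were low peaks, with 13 to 28 fragments. The highest was in intron 2 at chr7:113260538-113260830, 53.2 kb downstream of the first TSS, with a fold enrichment of 7.62 (5.15 to 10.89) and an AP-1 sequence 27 bp from its summit. Another intronic peak, at chr7:113250819-113250926, had 13 fragments and a fold enrichment of 3.68 (2.08 to 6.10), and a ROR element lay 49 bp from its summit, just outside the peak itself. The 3 flanking peaks were all upstream, at 11.1 to 23.4 kb. The highest of them, at chr7:113185854-113186729, had a fold enrichment of 6.88 (4.92 to 9.38) with an AP-1 sequence 44 bp from the summit and an E-box variant 356 bp from it.

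Clock (ENSMUSG00000029238.11, minus strand) had the fewest peaks for its length. Its promoter peak, at chr5:76303568-76305395, was the widest of the 9 genes at 1828 bp, against a median of 796 bp over the strongest promoter peaks of all protein-coding genes that have one. It had a fold enrichment of 10.13 (8.01 to 12.64), a −log10 q of 49.5 and 76 fragments, and it also covered a TSS of the antisense gene Gm7467. A ROR element and an E-box variant lay in it 1030 and 1058 bp downstream of the summit. No peak was found in the 94.9 kb of the gene body. The single flanking peak, inside the neighbouring gene Pdcl2 at chr5:76327061-76327781, was 22.7 kb upstream. It had 58 fragments and a fold enrichment of 10.96 (8.36 to 14.11), whose Poisson interval overlaps that of the promoter peak.

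The Per genes encode the PERIOD repressors. Per1 (ENSMUSG00000020893.17, plus strand), which responds within a short time to light and hormone signals in animals, had 14 peaks, the most of the 9 genes. Per1 and its flanks had 2.16 peaks per 10 kb, more than 99.8% of protein-coding genes, with a median of 0.384 over all. The peak at the first TSS, chr11:69094593-69095256, had a fold enrichment of 6.84 (5.48 to 8.44), a −log10 q of 40.7 and 85 fragments. An E-box lay 11 bp from its summit and another 195 bp from it. The stretch around the first, at chr11:69095047-69095092, is shown because it is, with that of the next Per1 peak, the E-box closest to a summit among the promoter peaks.
Per1, E-box at the first TSS: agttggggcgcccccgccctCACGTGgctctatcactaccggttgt

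The next promoter peak of Per1, at chr11:69098708-69098991 in intron 1 of the transcript that starts first, covered the start of the transcript Per1-201. It was low, with a fold enrichment of 3.37 (2.49 to 4.47) and 46 fragments over 12.9 expected. It held an E-box 11 bp from its summit and 163 bp upstream of that TSS, and a D-box 20 bp upstream of it. The stretch at chr11:69098763-69098952 is shown because it holds both motifs between the summit and the TSS.
Per1, E-box and D-box before the start of Per1-201: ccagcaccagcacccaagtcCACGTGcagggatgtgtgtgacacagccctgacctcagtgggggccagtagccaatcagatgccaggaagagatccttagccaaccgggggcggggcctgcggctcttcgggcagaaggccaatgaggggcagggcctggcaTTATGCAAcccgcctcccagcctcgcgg

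The third, at chr11:69099984-69100336, covered a pair of TSSs 4.93 and 4.94 kb downstream of the first and had a fold enrichment of 3.83 (2.80 to 5.13) with 43 fragments, and no clock motif. Between the first and the next TSS, a gene body peak at chr11:69097038-69097270 had a fold enrichment of 3.33 (2.44 to 4.44) and 44 fragments. It held a cAMP response element 12 bp from its summit and a glucocorticoid response element 134 bp from it. These are the motifs of CREB and of the glucocorticoid receptor, which are known to induce Per1. The stretch at chr11:69097057-69097229 is shown because no other of the 33 peaks of the clock genes away from any TSS held either of these motifs in the 300 bases around the summit.
Per1, glucocorticoid and cAMP response elements in intron 1: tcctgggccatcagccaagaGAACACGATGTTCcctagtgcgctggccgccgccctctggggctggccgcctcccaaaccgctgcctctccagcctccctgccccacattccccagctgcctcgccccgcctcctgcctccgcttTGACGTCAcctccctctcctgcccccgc

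The last Per1 gene body peak, in intron 8, had the lowest fold enrichment of the 58 peaks, 2.5 (1.62 to 3.70), with 23 fragments, and it held 2 AP-1 sequences, each 6 bp from the summit. Of the 9 flanking peaks of Per1, 5 were at TSSs of other genes. The highest flanking peak, at chr11:69078716-69079139 and 16.2 kb upstream, had a fold enrichment of 10.26 (7.87 to 13.16) and 60 fragments. It held an AP-1 sequence 18 bp from the summit, and 69.3% of the 300 bases around the summit are repeat sequence in the reference. The flanking peak at the TSS of Tmem107 (fold enrichment 7.24) held an E-box variant 218 bp from its summit, and that at Aloxe3 (fold enrichment 3.27) held 2 E-boxes, 477 and 568 bp from the summit.

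Per2 (ENSMUSG00000055866.9, minus strand) had most fragments at the first TSS. The peak at chr1:91459073-91459665 had a fold enrichment of 9.05 (7.55 to 10.77), a −log10 q of 73.1 and 125 fragments. A D-box lay 44 bp upstream of its summit, and the centre of an E-box variant lay 8 bp downstream of the TSS, in the untranslated part of exon 1. The stretch at chr1:91459299-91459464 is shown because it holds both motifs and the summit between them.
Per2, D-box and E-box variant at the first TSS: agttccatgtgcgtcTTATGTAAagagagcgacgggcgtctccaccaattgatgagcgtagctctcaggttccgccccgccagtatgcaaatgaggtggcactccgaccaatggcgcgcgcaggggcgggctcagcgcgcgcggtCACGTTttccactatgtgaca

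The other promoter peak of Per2, 918 bp downstream in intron 1 at chr1:91458230-91458560, had a fold enrichment of 5.51 (4.35 to 6.87) and 76 fragments and held no clock motif. The gene body had 2 further peaks, of which that in intron 17 at chr1:91428689-91428871 was the higher, with a fold enrichment of 4.42 (2.89 to 6.48). Of the 4 flanking peaks, 3 were at TSSs of other genes, with the highest, at Hes6 46.0 kb from the first TSS of Per2, at a fold enrichment of 11.82 (9.61 to 14.39). Another, at Ilkap (fold enrichment 8.02), held an E-box variant 493 bp from its summit. The flanking peak that was not at a TSS lay 1.53 kb upstream, at chr1:91460657-91460959, with 61 fragments, a fold enrichment of 4.45 (3.42 to 5.69) and an AP-1 sequence 104 bp from its summit.

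Per3 (ENSMUSG00000028957.12, minus strand), which is dispensable for the rhythm itself, had 3 peaks. Its promoter peak, at chr4:151044258-151045163, had 45 fragments, the fewest among the strongest promoter peaks of the 9 genes. The expected number was also the lowest, at 3.27, so that the fold enrichment was 10.77 (7.92 to 14.33) and the −log10 q 32.5. The peak held 2 D-boxes, 100 and 147 bp upstream of the summit, and no E-box or variant. The stretch at chr4:151044796-151044890 is shown because no other peak of the clock genes held more than 1 D-box.
Per3, 2 D-boxes in the promoter: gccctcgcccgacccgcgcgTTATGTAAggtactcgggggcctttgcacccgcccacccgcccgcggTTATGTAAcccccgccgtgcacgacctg

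The gene body peak of Per3, in intron 15 at chr4:151017426-151017802, had a fold enrichment of 8.67 (6.01 to 12.13) and 32 fragments, an AP-1 sequence 24 bp from its summit and 78.3% repeat sequence around it. The flanking peak was at a TSS of Vamp3, 13.4 kb upstream, with a fold enrichment of 12.93 (9.91 to 16.58) and a cAMP response element 78 bp from its summit. Per3 lies inside the annotated limits of Camta1, so its peaks are peaks of that locus as well.

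The Cry genes encode the CRYPTOCHROME repressors, the stronger inhibitors of the CLOCK and ARNTL dimer. Cry1 (ENSMUSG00000020038.10, minus strand) had 1 promoter peak, at chr10:85184789-85185682, with a fold enrichment of 11.44 (9.40 to 13.79), a −log10 q of 74.5 and 108 fragments. An E-box variant and an E-box lay 22 and 41 bp downstream of the summit, with 13 bases between them. The stretch at chr10:85185089-85185153 is shown because such close pairs are rare in promoter peaks, as given below.
Cry1, E-box variant and E-box in the promoter: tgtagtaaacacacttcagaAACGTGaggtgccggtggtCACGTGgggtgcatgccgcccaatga

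Cry1 is known to be reached by the nuclear receptors through an element in an intron. An intron 1 peak 23.1 kb downstream of the TSS, at chr10:85161839-85162139, had 43 fragments, a −log10 q of 32.7 and a fold enrichment of 11.46 (8.37 to 15.35), close to that of the promoter peak. It was the gene body peak with the highest fold enrichment of the 9 genes. It held 2 ROR elements on opposite strands, 14 and 41 bp from its summit. The stretch at chr10:85161889-85161994 is shown because no other peak of the clock genes held 2 of them.
Cry1, 2 ROR elements in intron 1: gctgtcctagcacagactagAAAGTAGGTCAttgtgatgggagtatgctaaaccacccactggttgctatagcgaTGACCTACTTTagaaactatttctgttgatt

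The remaining Cry1 gene body peaks had fold enrichments of 6.81 (5.26 to 8.68) 1.23 kb downstream of the TSS and 7.62 (5.15 to 10.89) in intron 2. The flanking peak of Cry1, at a TSS of Mterf2 at chr10:85127738-85128422, had the highest fold enrichment of all 58 peaks, 15.10 (12.01 to 18.74), with 80 fragments.

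Cry2 (ENSMUSG00000068742.11, minus strand) resembled Cry1 at the promoter. Its peak at chr2:92433614-92434455 had a fold enrichment of 11.66 (9.62 to 14.01), a −log10 q of 78.1 and 112 fragments, and it held a single E-box variant 73 bp upstream of the summit. The stretch at chr2:92434210-92434255 is shown for comparison with the pair in Cry1.
Cry2, E-box variant in the promoter: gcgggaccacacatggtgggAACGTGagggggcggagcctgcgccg

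A lower promoter peak of Cry2, at chr2:92431359-92431537 in intron 1, lay 855 bp from the start of a non-coding transcript and had a fold enrichment of 3.33 (2.28 to 4.70) with 30 fragments. No gene body peak was found. The highest of the 3 flanking peaks, inside Mapk8ip1 at chr2:92389135-92389862, had a fold enrichment of 6.66 (5.05 to 8.64) and 55 fragments.

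Nr1d1 (ENSMUSG00000020889.11, minus strand) encodes REV-ERBα and is a direct target of the E-box activators. It is the shortest of the 9 genes at 7.40 kb, and with its flanks it had 1.74 peaks per 10 kb, more than 99.3% of protein-coding genes. Its promoter peak, at chr11:98775111-98775964, had the lowest fold enrichment of the strongest promoter peaks, 4.69 (3.62 to 5.98), with a −log10 q of 21.2. Only 7.29% of the protein-coding genes with a promoter peak had a lower fold enrichment. The peak had 63 fragments, close to the median of 64 over those genes, and 12.7 expected fragments, more than 97.4% of them. An E-box variant lay 64 bp from the summit, and an E-box and a variant lay 231 and 218 bp upstream of it with 7 bases between them. The stretch at chr11:98775662-98775720 is shown because it is the closest pair in these peaks.
Nr1d1, E-box and variant in the promoter: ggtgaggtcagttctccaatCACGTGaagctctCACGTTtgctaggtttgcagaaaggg

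The intron 1 peak 1.35 kb downstream of the TSS, at chr11:98773722-98774211, was the highest of the 3 peaks in and at Nr1d1. It had 94 fragments, a −log10 q of 43.8 and a fold enrichment of 6.65 (5.39 to 8.12). The Poisson interval of this fold enrichment overlaps that of the promoter peak. It held 3 E-boxes, of which a pair 108 and 123 bp downstream of the summit had 9 bases between them, and a D-box 99 bp upstream of it. The stretch at chr11:98773839-98774107 is shown because no other peak of the clock genes away from TSSs held an E-box pair this close.
Nr1d1, D-box and E-box pair in intron 1: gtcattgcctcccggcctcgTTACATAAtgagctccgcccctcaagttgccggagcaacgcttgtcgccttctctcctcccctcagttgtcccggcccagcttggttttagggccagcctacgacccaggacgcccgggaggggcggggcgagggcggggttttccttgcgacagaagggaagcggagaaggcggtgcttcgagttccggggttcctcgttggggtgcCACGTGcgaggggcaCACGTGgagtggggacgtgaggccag

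The other intron 1 peak of Nr1d1, at chr11:98772715-98773148, had 78 fragments, a fold enrichment of 5.43 (4.30 to 6.75) and an E-box 89 bp from its summit. E-boxes were also found in 3 of the 7 flanking peaks. The flanking peak with the highest fold enrichment, 8.19 kb upstream at chr11:98783260-98783701, had 80 fragments and a fold enrichment of 9.09 (7.23 to 11.29), with an E-box 25 bp from the summit. The next, 13.7 kb upstream at chr11:98788832-98789151, had 65 fragments and a fold enrichment of 7.74 (6.00 to 9.83), with E-boxes 41 and 93 bp from the summit. A low peak inside Thra, at chr11:98747429-98747645, had 37 fragments and a fold enrichment of 4.48 (3.19 to 6.13), with an E-box 50 bp from the summit. The stretch at chr11:98789065-98789162, from the peak 13.7 kb upstream, is shown as the flanking peak away from TSSs with 2 E-boxes.
Nr1d1, 2 E-boxes 13.7 kb upstream: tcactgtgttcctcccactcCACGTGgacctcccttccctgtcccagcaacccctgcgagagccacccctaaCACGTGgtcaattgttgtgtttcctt

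All 5 peaks of the clock genes away from TSSs with an E-box in the 300 bases around the summit were thus peaks of Nr1d1. The other 4 flanking peaks of Nr1d1 held no E-box, D-box or ROR element, and 1 of them was at a TSS of Msl1.

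Nr1d2 (ENSMUSG00000021775.11, minus strand) encodes REV-ERBβ. Its promoter peak, at chr14:18238188-18239635, had the most fragments of all 58 peaks, 149, and the highest −log10 q, 96.9. Its fold enrichment of 10.68 (9.05 to 12.53) was in the middle of the 9 genes, since 13.0 fragments were expected there. The peak held no clock motif in the 300 bases around the summit. Further downstream, in intron 1, it held 3 E-boxes 638, 741 and 786 bp from the summit and a D-box 707 bp from it. The stretch at chr14:18238505-18238698 is shown because it holds all 4 motifs.
Nr1d2, 3 E-boxes and a D-box in intron 1: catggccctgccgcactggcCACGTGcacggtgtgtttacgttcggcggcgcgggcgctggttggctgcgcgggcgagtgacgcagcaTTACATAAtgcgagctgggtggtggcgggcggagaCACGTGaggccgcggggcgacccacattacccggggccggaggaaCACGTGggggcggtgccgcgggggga

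The remaining peak of Nr1d2, in intron 1 at chr14:18234089-18234459, had 46 fragments and a fold enrichment of 4.39 (3.24 to 5.82), with an AP-1 sequence at the summit itself. No flanking peak was found within 25 kb.

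The order of the strongest promoter peaks depended on the measure. By fold enrichment it ran from Nr1d1 over Per1, Per2, Clock, Nr1d2, Per3, Cry1 and Cry2 to Arntl, and the Poisson intervals of every neighbouring pair in this order overlapped. The intervals of Nr1d1 and Per1 lay below those of Arntl, Cry1, Cry2 and Nr1d2 without overlap. That of Nr1d1 also lay below those of Per2, Per3 and Clock. By fragments at the summit the order ran from Per3 (45) over Nr1d1 (63), Clock (76), Per1 (85), Arntl (91), Cry1 (108), Cry2 (112) and Per2 (125) to Nr1d2 (149). The median fold enrichment of the 9 peaks was 10.7, against 9.86 (quartiles 7.27 and 12.4) over the 11788 protein-coding genes with a promoter peak. The median number of fragments was 91, against 64 (quartiles 42 and 89).

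**Figure D2:**
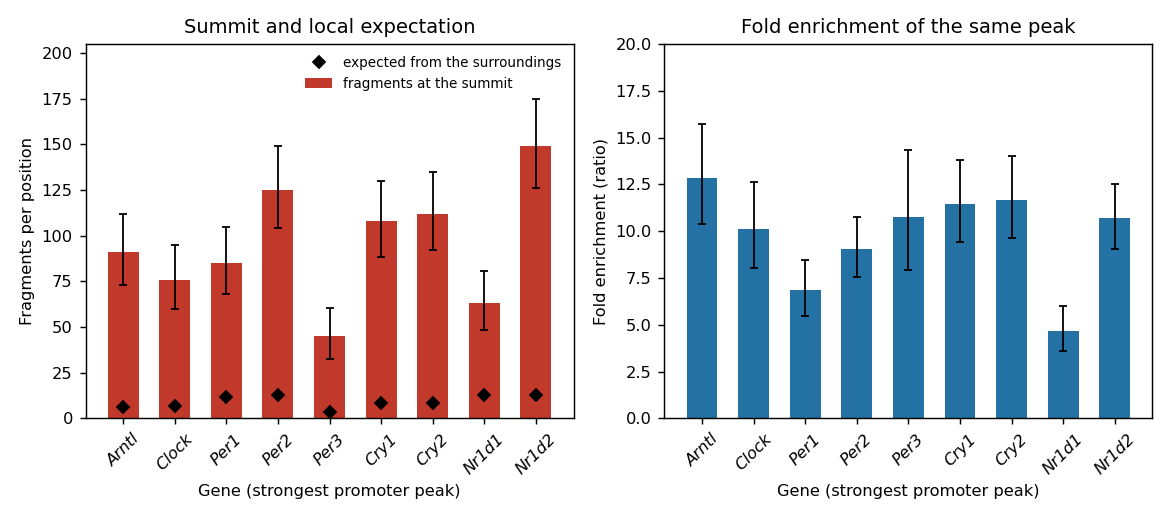
Strongest promoter peak of each clock gene, with fragments per position at the summit (left, bars) and the number expected from the surroundings (diamonds), and the fold enrichment as a ratio (right). Error bars are exact Poisson 95% intervals of the fragments for counting error in the 1 library; Nr1d2 has the most fragments (149), while Arntl has the highest fold enrichment (12.86) and Nr1d1 the lowest (4.69).

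The measures parted most at Per1, Per2, Nr1d1 and Nr1d2, where 11.6 to 13.0 fragments were expected, more than at 95.9% to 97.7% of the genes with a promoter peak. The median over those genes was 5.51. The expected number enters the denominator of the fold enrichment, so these genes ranked lower by fold enrichment than by fragments. Per1 stood above 21.7% of the genes by fold enrichment and above 70.7% by fragments, and Per2 above 41.9% and 91.6%. Nr1d2 stood above 58.8% and 96.6%. With less distance between the measures, Cry1 stood above 66.5% and 85.1%, and Cry2 above 68.5% and 86.8%. Per3 was the opposite case, above 59.6% of the genes by fold enrichment and above 28.1% by fragments.

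At Per1, Per2, Nr1d1 and Nr1d2, and also at Cry1 and Cry2, other peaks lay in the 10 kb centred on the promoter summit. The share of these 10 kb in peaks, the promoter peak included, had a median of 9.27% over the genes with a promoter peak. It was 17.8% at Nr1d1, with 3 peaks. At Nr1d2 it was 15.9%, with 2 peaks, and the promoter peak of 1448 bp itself made up most of it. The value was 13.4% at Per2 and 12.8% at Per1, with 4 peaks in each window. Cry1 had 13.0% with 2 peaks and Cry2 12.0% with 3 peaks, where only 8.53 and 8.69 fragments were expected. The share was highest at Clock, 18.3%, where a single wide peak accounted for it and 6.60 fragments were expected. What raised the expected number at each gene was not tested.

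**Figure D3:**
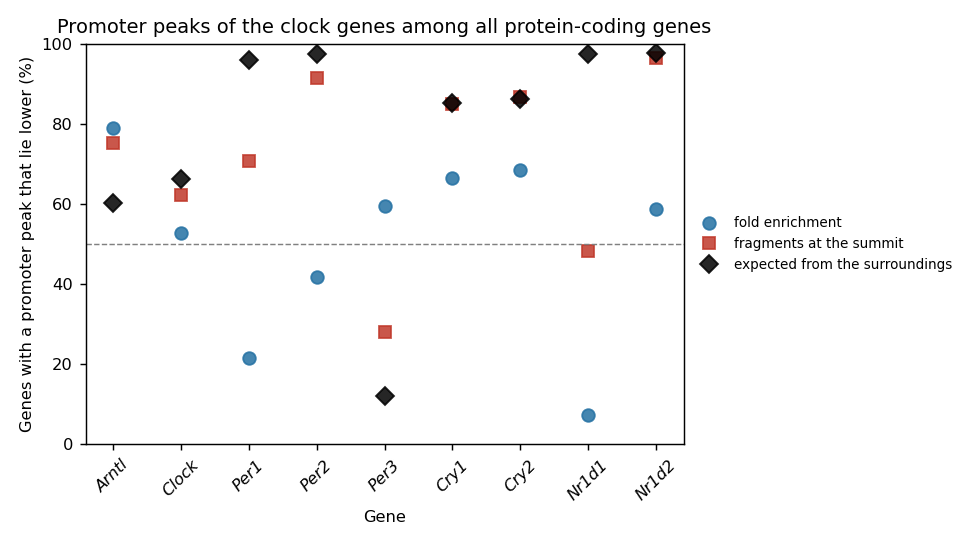
Rank of each clock gene's strongest promoter peak among the 11788 protein-coding genes with a promoter peak, as the percent of genes that lie lower (vertical axis) by fold enrichment, by fragments at the summit and by the expected number; the dashed line is 50%. Nr1d1 lies above 7.29% of genes by fold enrichment but above 97.4% by the expected number.

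In base composition the promoter peaks were near the average. The 300 bases around the summits had a median GC content of 61.0% over the 13 promoter peaks, against 62.0% over the 13923 promoter peaks of protein-coding genes. The median ratio of observed to expected CpG was 0.72 against 0.75. The lowest ratio, 0.184, was in the intron 1 peak of Per2, and the highest, 1.16, in the peak at its first TSS. In 6 of the 13 promoter peaks part of the 300 bases was repeat sequence, at most 16.0% of them.

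An E-box or its variant lay in the 300 bases around the summit of 6 of the 13 promoter peaks, which belong to Per1, Per2, Cry1, Cry2 and Nr1d1, against 14.4% of all promoter peaks of protein-coding genes. The E-box itself was in 3 of the 13, against 9.53%. A D-box was in 3 of the 13, 1 each at Per1, Per2 and Per3, against 1.03%. The cAMP response element was in none of the 13, against 2.85%. These motifs were chosen from what is known of clock gene regulation and several peaks belong to the same gene, so the counts describe these 9 genes and were not tested.

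Over whole peaks, which are wider than the 300 bases at most promoters, an E-box or variant was in 8 of the 13 promoter peaks, with Clock and Nr1d2 added, against 27.3%. Arntl and Per3 were the members without one. A pair of E-boxes or variants with at most 20 bases between them was in 2 of the 13, those of Cry1 and Nr1d1, against 0.819%. A ROR element was in 2 of the 13, those of Arntl and Clock, against 0.510% of all promoter peaks. The 13 peaks had a median width of 842 bp, against 681 bp over all promoter peaks, and those of Clock and Nr1d2 were the widest. A wider peak has more bases in which a match can lie, so these whole-peak shares are not compared at equal width.

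**Figure D4:**
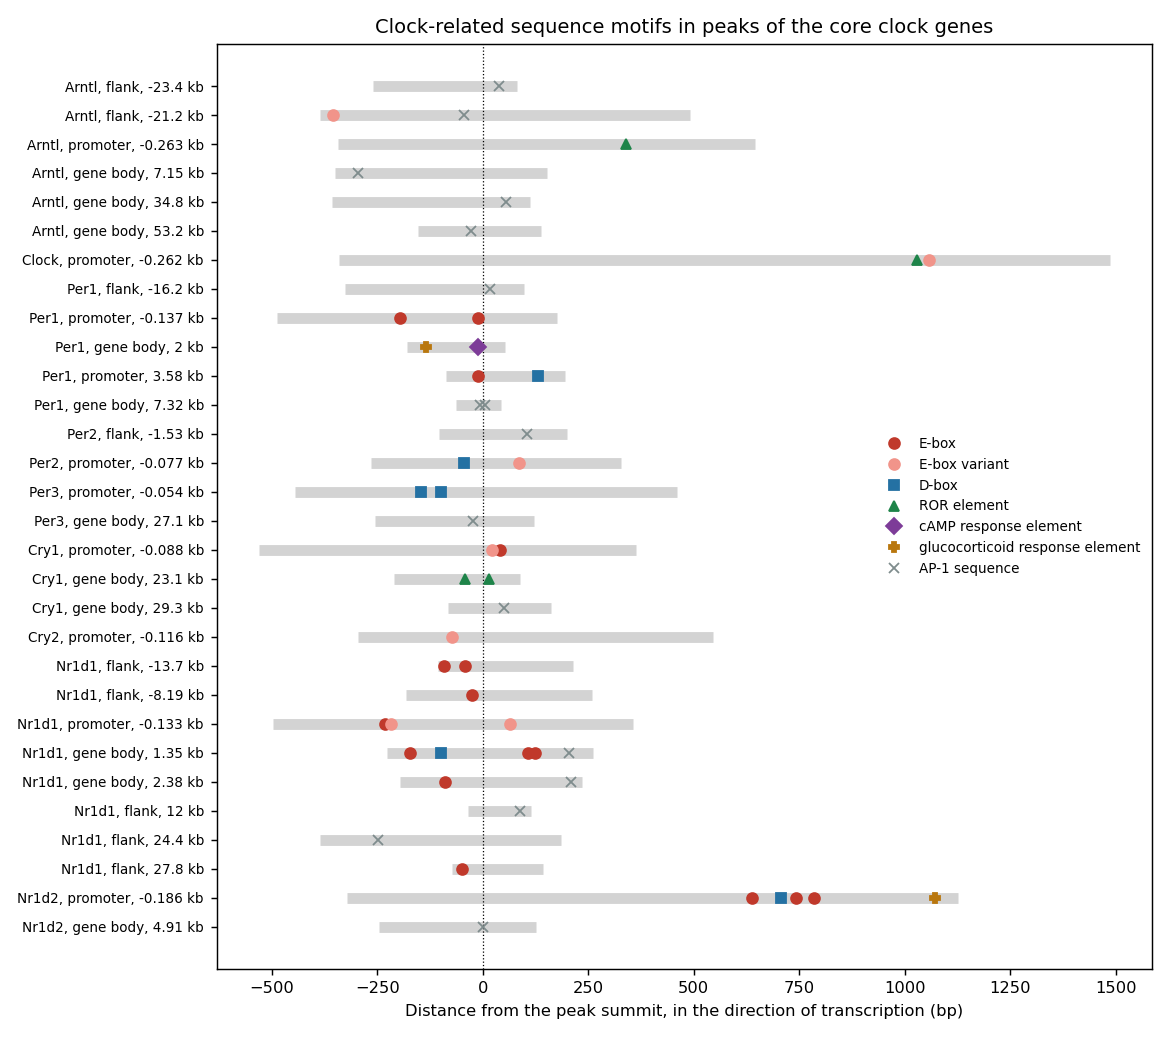
Positions of motifs in the peaks of the clock genes that hold at least 1 of them, by distance from the summit in the direction of transcription (bp). Grey bars are the peaks, labelled by gene, class and distance of the summit from the first TSS. Flanking peaks at TSSs of other genes are left out. In the promoter peaks of Per1, Per2, Cry1, Cry2 and Nr1d1 the nearest E-box or variant is at most 85 bp from the summit. In those of Nr1d2 and Clock it is at least 638 bp from the summit. AP-1 sequences appear in gene body and flanking peaks but in no promoter peak, against 14.9% of all promoter peaks of protein-coding genes.

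Away from TSSs the most frequent of the motifs named above was the AP-1 sequence. The AP-1 sequence, bound by the FOS and JUN proteins, was in 12 of the 33 peaks of the clock genes more than 1 kb from any TSS, a share close to the 39.8% of all 47192 such peaks. It was in none of the 13 promoter peaks, against 9.94% of all promoter peaks of protein-coding genes, a share so low that 13 peaks may hold none. The E-box was in 5 of the 33, all at Nr1d1, against 4.49%. The ROR element was in 2 of the 33, at Arntl and Cry1, against 0.538%. These 33 peaks had a median of 34 fragments, against 25 over all such peaks, and a median fold enrichment of 4.48 against 5.54.

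Other genes of the clock were taken by group, again beside the 53.7% of all protein-coding genes with a promoter peak. All 10 kinases, ubiquitin ligases and other modifiers of clock proteins had one, as did all 6 corepressors and cofactors and 5 of the 6 paralogues and partners. Rora, the gene for a receptor that activates through the ROR element, had one. Arntl2, a paralogue of Arntl, and the receptor gene Rorb had none, with the nearest peaks 2119 and 25654 bp from a TSS. The highest fold enrichments were at Ciart (14.91), a repressor of the CLOCK and ARNTL dimer, at Sirt1 (14.42), a NAD-dependent deacetylase, and at Csnk2a1 (13.99), a kinase subunit. The median over the 26 other clock genes with a promoter peak was 10.4, against 10.7 over the 9 core genes. All 4 bZIP genes that act through the D-box had a promoter peak, with fold enrichments of 7.80 for Dbp, 9.65 for Tef, 13.69 for Hlf and 4.03 for Nfil3.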

How the data were processed

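ATAC-seq of 1 library of parental NIH-3T3 cells was analysed. Per the submitters' processing notes, the tools were STAR 2.5.3a, Picard, SAMtools, deepTools and MACS2 2.1.1.20160309, with the genome build mm10. According to the study's methods, reads were sequenced in pairs. The peaks were called per sample. No shift of the fragment ends for Tn5 is described, and whether blacklisted regions were removed from this list is not clear. The authors deposited for each peak a fold enrichment (a ratio), a −log10 p and a −log10 q of the peak caller, and a score derived from the −log10 q. The total number of reads is not part of the list, so the depth is given as fragments per summit.

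Coordinates are counted from 1. Peaks were assigned to genes with GENCODE M21. A promoter peak lies within 1 kb of the start of any transcript of the gene, a gene body peak overlaps the gene otherwise, and a flanking peak lies within 25 kb of it. Whole fragments and the expected number at each summit were solved from the fold enrichment and the −log10 p, tested on simulated data. They came out whole within 0.02 fragments for 99.997% of peaks. Motifs were searched in the 300 bases centred on each summit and in whole peaks. The search of whole peaks for motifs other than the E-box and the count of E-box pairs were chosen after values had been seen. The members, gene lists and motifs were chosen with earlier results of these data known. Named were each promoter peak, the highest gene body and flanking peak, every peak with an E-box, D-box, cAMP response element or ROR element, and, of the other clock genes, those without a promoter peak and the 3 highest. The values of 1 listed gene are not reported here. A few other peaks, the Per1, Per2, Cry1 and Nr1d2 gene body peaks among them, were named after their values were seen. So were the genes that act through the D-box and the cell type markers. Alternatives were stricter limits on −log10 q and fold enrichment, other distances and windows, and protein-coding transcripts only. The scripts used pysam 0.24.0 for sequences, pandas 2.3.3 and NumPy 2.4.6 for tables, SciPy 1.17.1 for Poisson intervals and matplotlib 3.10.9 for plots, under Python 3.11.15.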

Additional observations from a re-analysis of the deposited data

How the results depend on the processing

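No paired analysis was possible because the parental line has a single library. Of 110 alternative values, 100 stayed within the limits (1.5 times for a count, the counting interval for a fold enrichment) and 10 moved. All 9 clock genes kept a promoter peak under each alternative but a fold enrichment of at least 5, which leaves out the low peak of Nr1d1. With that limit the gene body peaks fell from 16 to 8, the flanking peaks from 29 to 14 and the AP-1 sequences away from TSSs from 12 to 6, as fewer peaks were counted. A distance of 2 kb from the TSS gave 20 promoter peaks in place of 13, and with it the highest fold enrichment at the promoter of Nr1d1 rose from 4.69 to 6.65, that of the intron 1 peak. Flanks of 10 and 50 kb gave 9 and 55 flanking peaks, and 17 were left without those at TSSs of other genes. The promoter peaks with an E-box or variant fell from 6 to 3 in a window of 100 bases, and to 3 when only CACGTG was counted. No replicate measures the spread of these values, and a peak that is missing from the list was not detected at this depth and is not shown to be absent.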
